A study of Mus musculus with 3 samples.

Results

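Neutrophils were taken from the single-cell libraries of 3 irradiated mouse lungs. The cells were chosen by their own expression: a cell counted as a neutrophil when 4 or more of 8 neutrophil markers (S100a8, S100a9, Csf3r, G0s2, Cxcr2, Retnlg, Il1r2 and Mxd1) were above 0 and none of 6 genes of other cells (Cd3e, Cd79a, C1qa, Chil3, Epcam and Pecam1) was. The rule kept 872 of 19622 cells, made up of 265 of 6372 CONV cells, 304 of 6983 CONV AsiDNA cells and 303 of 6267 FLASH cells. Values in lists of 3 below stand in that order. Each library came from the lung of 1 female C57BL6/J mouse labelled WT, collected 5 months after 13 Gy to the thorax. CONV was irradiated at a conventional dose rate and FLASH at an ultra-high dose rate. CONV AsiDNA was irradiated at the conventional dose rate after AsiDNA, a short DNA molecule that mimics a double-strand break. AsiDNA was injected at 100 mg/kg on each of the first days and at 200 mg/kg on the day of irradiation. All 3 mice were irradiated, so none of the comparisons here has an unirradiated lung beside it. With 1 mouse per condition, mouse, library and condition cannot be told apart, no test between conditions was possible, and every ratio below describes these libraries.

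Neutrophils are short-lived granulocytes made in the bone marrow. They load primary, secondary and tertiary granules one after another as they mature, and then leave for the blood, where the chemokine receptor Cxcr2 guides them into tissue. In the lung they form a large marginated pool, and on activation they transcribe chemokines such as Cxcl2 and the cytokine Il1b, under the control of NF-kB. Interferons induce a separate set of antiviral genes in them.

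The deposited values turned into whole numbers, called adjusted counts here. Levels are given per 1000000 adjusted counts of a library's neutrophils, written as acpm, and compare a gene between libraries rather than genes with each other. The median neutrophil held 2777, 2901 and 2940 adjusted counts and 791, 857 and 806 genes. Other cells were deeper, with medians of 3478, 3742 and 3675 adjusted counts. An adjusted count of 0 need not mean absence. Mitochondrial genes made up 0.0008%, 0.00197% and 0% of the neutrophils' counts against 1.53%, 1.03% and 2.24% in the other cells. Ribosomal protein genes were also mostly at 0: Rps16 was above 0 in 4.53%, 1.32% and 11.6% of the neutrophils and in at least 99.7% of B cells of every library. The libraries shared 9 to 17 cell barcodes in pairs, and 1 shared barcode belonged to a neutrophil in both CONV AsiDNA and FLASH.

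Their share of the library was 4.16% for CONV (exact 95% interval 3.68 to 4.68), 4.35% for CONV AsiDNA (3.89 to 4.86) and 4.83% for FLASH (4.32 to 5.4). The intervals overlapped for every pair of libraries. They cover the sampling of cells only, not the difference between mice.

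**Figure D1:**
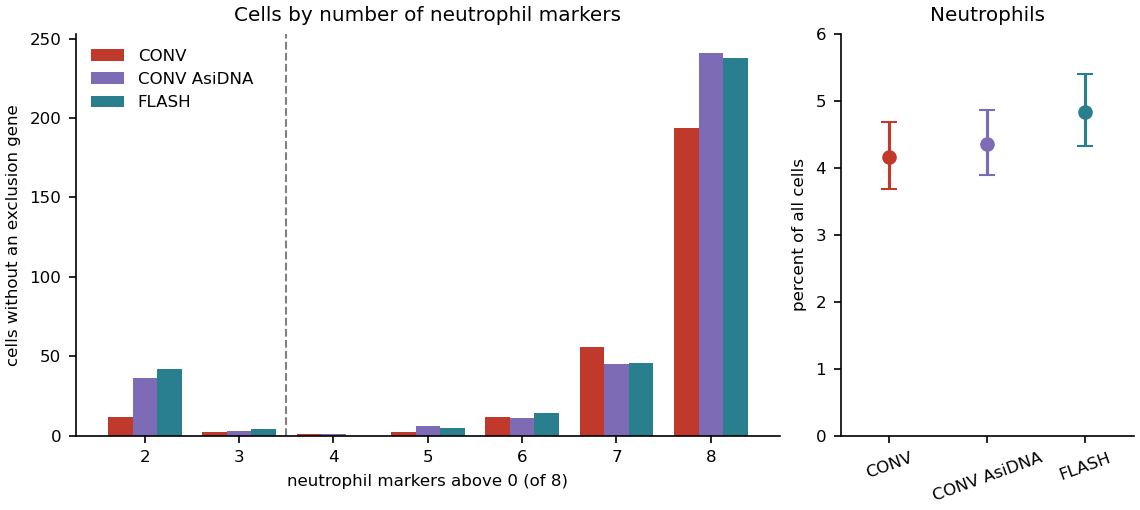
Left, number of cells without an exclusion gene (y axis) by the number of the 8 neutrophil markers above 0 (x axis, from 2), for the 3 libraries, with the dashed line at the threshold of the rule. Right, neutrophils as a percent of all cells with exact 95% intervals: 4.16%, 4.35% and 4.83%, with overlapping intervals.

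The rule cut through a nearly empty range. All 8 markers were above 0 in 194 CONV, 241 CONV AsiDNA and 238 FLASH cells. Just inside the threshold, 1, 1 and 0 cells had 4 markers and 2, 6 and 5 cells had 5. Just outside it, 2, 3 and 4 cells had 3 markers. An exclusion gene removed 2, 11 and 1 further cells with 4 or more markers. Of the 11 cells in CONV AsiDNA, 9 had Chil3 above 0, a chitinase-like gene known from alveolar macrophages and from maturing neutrophils, and no such cell was found in the other libraries.

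The markers that chose the cells are given as a description. S100a8 and S100a9 encode calprotectin, a major protein of the neutrophil cytosol. S100a9 reached 105846, 110205 and 140340 acpm, and S100a8 reached 73680, 79796 and 97717. The pair took 16.2%, 15.4% and 20.2% of the adjusted counts of the median cell. Both genes were listed at 0 in every cell of a B cell gate (624, 954 and 730 cells) and a T cell gate (1039, 830 and 964 cells). Since a 0 need not mean absence in these values, this does not measure the free RNA of the libraries. Csf3r, the receptor for the growth factor of neutrophils, stood at 2324, 2457 and 2729 acpm. Cxcr2, the receptor for Cxcl2 and related chemokines, was the marker whose level differed most, at 1206 in CONV against 2509 and 2548. The median neutrophil held 3 adjusted counts of Cxcr2 in CONV and 7 in each of the other libraries. Il1r2, the decoy receptor for interleukin-1, went the other way, at 2516 against 1555 and 1421.

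Several genes outside the rule also marked these cells as neutrophils. Among the 20 genes that led the neutrophils over all other cells by the smallest log2 ratio of the 3 libraries, 8 were the rule's own and 12 were not. Stfa2l1, a cathepsin inhibitor of the stefin A family, was above 0 in 57.4%, 41.1% and 42.9% of the neutrophils and in at most 0.015% of the other cells. Mmp9, a gelatinase of tertiary granules, was above 0 in 94%, 92.1% and 90.8% of the neutrophils and in 0.54% to 1.21% of the other cells. Il1b was above 0 in 98.5%, 96.7% and 92.7% against 4.88%, 11.2% and 10.2%. The receptors Trem1 and Clec4e and the itaconate enzyme Acod1 were also among the 12. Other neutrophil markers were seen in fewer cells. Ly6g was above 0 in 10.6%, 19.4% and 22.8% of the neutrophils and Cd177 in 11.3%, 19.1% and 23.1%.

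Genes of several other cell types were near 0. The rule itself favours this, since it removed cells with any of 6 genes of other cells and required 4 neutrophil markers. A 0 in these values also need not mean absence. All 8 MHC class II genes and all 10 alveolar epithelial and airway markers were listed at 0 in every neutrophil. The summed level of the macrophage markers was 0, 29.5 and 29.2 acpm, that of the dendritic cell markers at most 8.74, and that of the T and NK cell markers at most 2.18. Among primary granule genes of marrow precursors, Mpo (myeloperoxidase) and Ctsg (cathepsin G) were listed at 0 in every neutrophil, and Elane, Prtn3 and Ms4a3 reached at most 6.49 acpm in a library. Of 18 cell cycle genes, 15 were listed at 0 in all neutrophils, Mki67 included. The list still summed to 1913, 1455 and 1714 acpm, nearly all of it Hmgb2, a chromatin protein, which was above 0 in 96.6%, 91.1% and 94.1% of the neutrophils. Monocyte markers had a summed level of 3355, 2000 and 1462 acpm. Nr4a1, which is also an immediate early gene, made up 3071, 1414 and 979 of it. Of the other 4 compared markers, Ly6c2 (89.4, 222 and 311) and Csf1r (30.7, 115 and 85.4) were lowest in CONV, while Spn (81.4, 90.6 and 37.8) and Treml4 (49.4, 69.9 and 40) lay in CONV between the other libraries. Ly6c2 was higher in cells with 2 or more of the granule genes Ltf, Camp and Ngp, at 972, 1198 and 1240 acpm against 42.2, 91.6 and 135 in the rest. Their part in the results was not tested, beyond an alternative without the neutrophils that a monocyte gate also took. That gate (4 or more of 10 markers) took 1, 11 and 1 of the neutrophils. Erythroid and platelet genes summed to 756, 0 and 4.33 acpm, and 1 CONV neutrophil held 2 or more of them.

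Levels were compared for 3096 genes whose adjusted counts summed to 50 or more and that were above 0 in each library's neutrophils. Ratios are log2 ratios of acpm with 10 added to both levels. CONV stood 2-fold or more above CONV AsiDNA for 71 genes (2.29%) and below it for 173 (5.59%). CONV stood above FLASH for 154 (4.97%) and below it for 152 (4.91%). CONV AsiDNA stood above FLASH for 130 (4.2%) and below it for 28 (0.904%). In either direction, 7.88%, 9.88% and 5.1% of the genes were past 2-fold in these comparisons, which share libraries and are not independent. CONV was 2-fold or more above both others for 37 genes (1.2%) and below both for 95 (3.07%). The same counts were 23 (0.743%) and 9 (0.291%) for CONV AsiDNA, and 12 (0.388%) and 69 (2.23%) for FLASH. By any amount, CONV was above both others for 35.6% of the genes and below both for 40%, and the gene groups below are read against these shares. The same shares were 37.5% and 21.1% for CONV AsiDNA, and 26.9% and 38.9% for FLASH. A further 53 genes with a sufficient sum were listed at 0 in 1 or more libraries and were given no ratio.

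**Figure D2:**
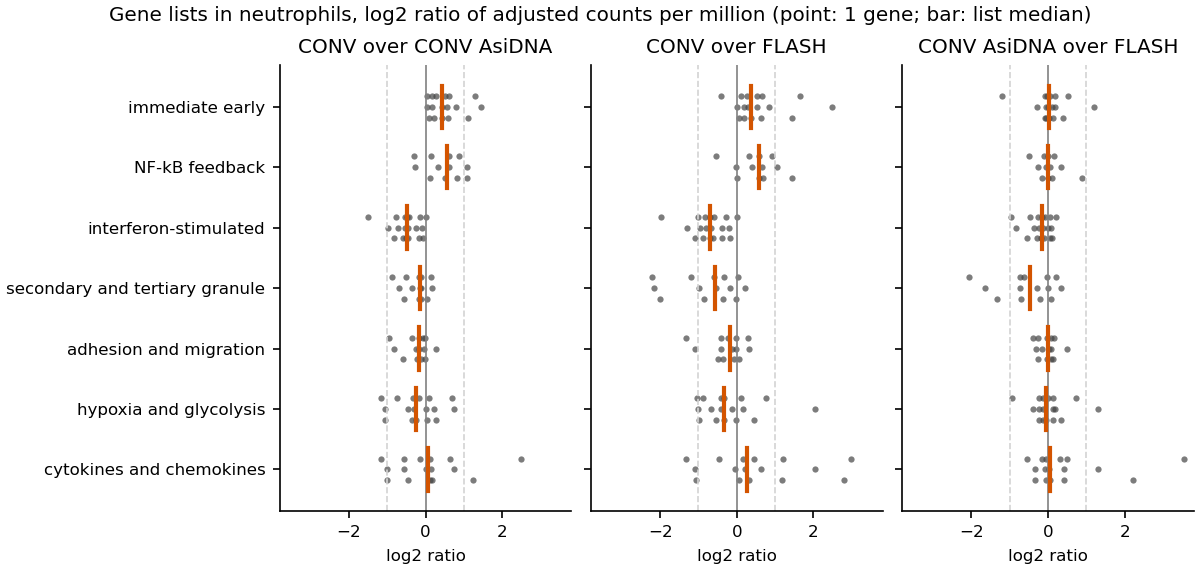
Log2 ratios (x axis) of acpm between the neutrophils of each pair of libraries, for the compared genes of 7 groups (y axis). Each point is 1 gene, the bar is the group median, and dashed lines mark 2-fold. The medians of immediate early and NF-kB feedback genes lay to the right in both CONV comparisons and that of interferon-stimulated genes to the left.

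The chemokine genes Cxcl2 and Cxcl3 and most compared genes of NF-kB feedback had higher levels in CONV neutrophils. Cxcl2, the chemokine that draws further neutrophils through Cxcr2, stood at 14434, 6115 and 6300 acpm. It was above 0 in 95.8% (92.7 to 97.9), 82.2% (77.5 to 86.4) and 75.6% (70.3 to 80.3) of the neutrophils, and the median cell held 37, 11 and 10 adjusted counts. Single cells overlapped between the libraries, since the middle of the cells lay from 19 to 57 adjusted counts in CONV, from 2 to 25.2 in CONV AsiDNA and from 1 to 30 in FLASH (lower to upper quartile). The log2 ratios of CONV were 1.24 to CONV AsiDNA and 1.19 to FLASH, and that of CONV AsiDNA to FLASH was -0.04. Cxcl3, a close relative of Cxcl2, was above 0 in 24.2%, 5.59% and 5.94% of the cells, at 351, 54.6 and 42.2 acpm. Ccrl2, a receptor that binds chemerin without signalling, stood at 1637, 613 and 507 acpm. In each of these 3 genes CONV was 2-fold or more above both others. Cxcl1 was above 0 in 7.55%, 0.987% and 0% of the cells.

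Of the 12 compared genes of NF-kB feedback, 8 were higher in CONV than in both other libraries and 1 was lower, and the median log2 ratios of CONV were 0.56 (to CONV AsiDNA) and 0.59 (to FLASH). Nfkbia, the inhibitor that holds NF-kB in the cytoplasm, stood at 4502, 2569 and 2395 acpm. Nfkbiz, a nuclear cofactor of NF-kB, stood at 2653, 1241 and 1277. Tnfaip3, which encodes the A20 enzyme that ends NF-kB signalling, stood at 942, 436 and 341. Zc3h12a, an RNase that degrades cytokine messages, stood at 197, 127 and 128. The group was not uniform. Tnfaip2 showed little difference at 4038, 3672 and 4085, and Nfkb1 was lowest in CONV at 42.7 against 53.5 and 66. The genes of the group made up 1.39%, 0.793% and 0.832% of the median neutrophil's adjusted counts. In the T cell gate 12 of 14 genes were above both others in CONV and 1 was below both, in the B cell gate 3 of 12 and 6, and in the monocyte gate 4 of 14 and 9. Over all genes compared in these gates, 34.6% (T cells), 23.8% (B cells) and 40.3% (monocytes) were above both others in CONV, and 37.3%, 54.2% and 42.6% were below both, so the B cell counts are near those of all genes. The medians of the monocyte gate were -0.37 and -0.25, of the opposite sign to those of the neutrophils. The CONV monocyte gate held 49 cells.

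The upstream sequences of 3 of these genes, taken from RefSeq, are shown because CONV was above both other libraries for each of the 3 and NF-kB is known to act on them. The build is GRCm38.p6, each window holds the 250 bases before the gene's start, 5′ to 3′ on the gene's strand, and capitals mark matches to the NF-kB motif GGGANNTNCC on either strand.
Cxcl2, chr5:90903649-90903898, plus strand: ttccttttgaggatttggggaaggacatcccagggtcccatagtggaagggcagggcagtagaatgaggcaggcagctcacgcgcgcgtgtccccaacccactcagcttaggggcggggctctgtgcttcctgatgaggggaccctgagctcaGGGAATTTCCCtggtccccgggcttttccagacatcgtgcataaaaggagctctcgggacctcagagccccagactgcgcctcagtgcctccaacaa
Cxcl3, chr5:90785851-90786100, plus strand: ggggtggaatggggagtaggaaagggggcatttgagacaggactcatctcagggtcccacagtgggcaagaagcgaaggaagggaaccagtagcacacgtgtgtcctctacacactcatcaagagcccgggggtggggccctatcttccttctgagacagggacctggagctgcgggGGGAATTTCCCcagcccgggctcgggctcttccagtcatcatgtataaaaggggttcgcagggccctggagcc
Nfkbia, chr12:55492648-55492897, minus strand: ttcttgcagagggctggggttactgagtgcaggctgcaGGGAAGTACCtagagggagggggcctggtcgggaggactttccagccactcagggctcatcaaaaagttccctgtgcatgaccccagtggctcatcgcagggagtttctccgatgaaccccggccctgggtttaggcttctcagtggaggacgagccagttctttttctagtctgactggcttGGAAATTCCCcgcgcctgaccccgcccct

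In Cxcl2 and in Cxcl3 the capitals are 2 overlapping matches, 1 on each strand, and the first begins at position -97 in Cxcl2 and -73 in Cxcl3, counted from the start of the gene. Nfkbia holds 2 separate matches. Of 17 genes (the 15 of NF-kB feedback with Cxcl2 and Cxcl3), 14 had a window and 7 of these held the motif: Nfkbia, Nfkbid, Nfkb2, Rel, Tnip1, Cxcl2 and Cxcl3. A gene can have several windows, and 1 match is enough here. Of all 27025 genes with a window 3.8% held the motif in at least 1, and of all 32851 windows 3.33% did. Nfkbiz and Nfkb1 were among the genes with no window here. Tnfaip3, which was 2-fold or more higher in CONV, had no match in its windows, and Rel, which had one, stood at 181, 167 and 182 acpm. A match describes letters and is no evidence of binding.

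Immediate early genes, which are transcribed within minutes of a stimulus, were higher in CONV in the same way. Of 17 compared genes, 15 were above both other libraries and none was below both, with medians of 0.44 and 0.38. Nr4a1, an orphan nuclear receptor, was above 0 in 97% (94.1 to 98.7), 73.7% (68.4 to 78.5) and 69% (63.4 to 74.1) of the neutrophils, at 3071, 1414 and 979 acpm. Atf3, a stress-induced transcription factor that restrains inflammatory genes, stood at 361, 127 and 127. Dusp2, a nuclear phosphatase of MAP kinases, stood at 313, 123 and 47.6, and was the group's one gene that differed 2-fold or more in all 3 comparisons. Jund stood at 2673, 1781 and 1851, and Zfp36, which destabilises cytokine messages, at 2298, 1514 and 1451. Fos and Junb differed little, with Fos at 2357, 2224 and 2257 and Junb at 6267, 5555 and 5861. Egr1 departed from the group, at 412, 235 and 554, with FLASH the highest. In the B cell gate 3 of 15 compared immediate early genes were above both others in CONV and 9 were below both, in the T cell gate 9 of 18 and 4, and in the monocyte gate 5 of 17 and 6. Beside the shares given for all genes of each gate, the B cell counts are near those of all genes. Klf2, a factor of quiescent cells, stood at 4098, 3025 and 2307 acpm in neutrophils, and in B and T cells it was above 0 least often in CONV.

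**Figure D3:**
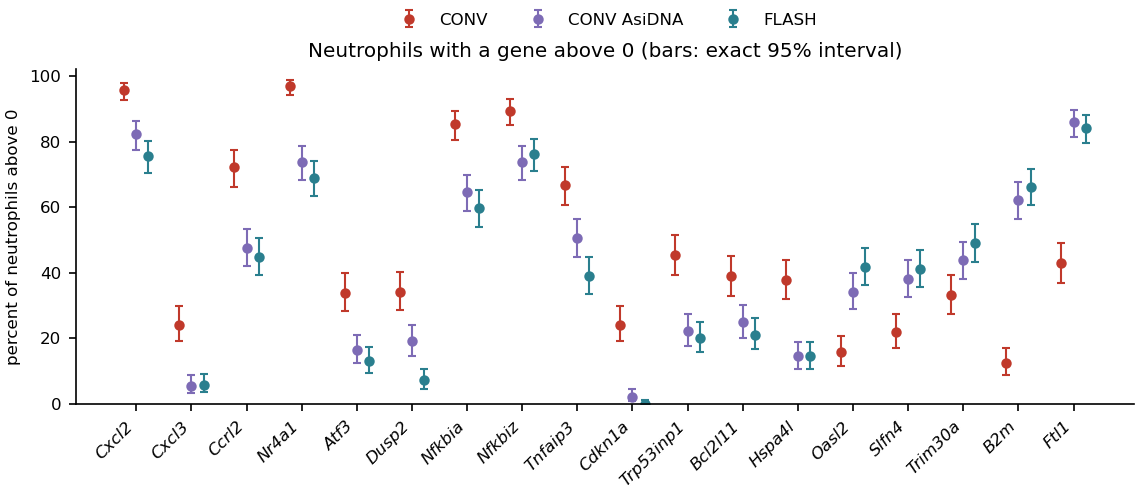
Percent of neutrophils with a gene above 0 (y axis) for 18 genes (x axis) in the 3 libraries, with exact 95% intervals that cover the sampling of cells. From Cxcl2 to Hspa4l the CONV share was the highest, and from Oasl2 to Ftl1 it was the lowest.

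Few genes of the p53 response were measurable. Of 22 genes, 9 were compared, and CONV was above both other libraries for 5 and below both for 3. Cdkn1a, which encodes the p21 inhibitor of the cell cycle, was above 0 in 24.2% (19.1 to 29.8) of CONV neutrophils and in 2.3% of CONV AsiDNA neutrophils, and was listed at 0 in all FLASH neutrophils. Its level was 303 and 19.7 acpm in the libraries where it was seen. In the monocyte gate it was above 0 in 59.2%, 55.7% and 40.3% of the cells, and in all other cells in 32.8%, 28.6% and 26.9%. Trp53inp1, which promotes cell death and autophagy, stood at 304, 103 and 104 acpm, so that CONV was past 2-fold above both others with log2 ratios of 1.48 and 1.46. Plk2, a stress-induced kinase, was above 0 in 37.4%, 17.4% and 23.1% of the cells. Mdm2, the ubiquitin ligase of p53, stood at 77.4, 59 and 47.6. Gadd45a was lowest in CONV, at 172 against 293 and 319. Bcl2l11, the cell death gene that encodes Bim, stood at 372, 156 and 119 acpm, while Mcl1, the main survival factor of neutrophils, stood at 3284, 2940 and 2873.

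Interferon-stimulated genes were lower in CONV neutrophils. Of 19 compared genes, 17 were below both other libraries and none was above both, with median log2 ratios of -0.48 (to CONV AsiDNA) and -0.71 (to FLASH). The median of CONV AsiDNA to FLASH was -0.15. Oasl2, a relative of the oligoadenylate synthetases, was above 0 in 15.8% (11.7 to 20.8), 34.2% (28.9 to 39.8) and 41.9% (36.3 to 47.7) of the neutrophils, at 80, 245 and 345 acpm. It was the group's one gene at 2-fold or more below both others. Slfn4, a schlafen gene of myeloid cells, was above 0 in 21.9%, 38.2% and 41.3%, at 140, 257 and 308 acpm. Isg15, a ubiquitin-like modifier, stood at 143, 203 and 301. Trim30a stood at 191, 273 and 336. Ifitm2, a membrane barrier to viruses, hardly differed, at 3796, 3998 and 3785.

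Cells with several of these genes above 0 made up the smallest share in CONV. Whether the genes occurred together more than separate detection would give was not tested. Of the 25 interferon-stimulated genes outside the Ifitm family, 5 or more were above 0 in 28 CONV cells (10.6%, 7.14 to 14.9), 72 CONV AsiDNA cells (23.7%, 19 to 28.9) and 84 FLASH cells (27.7%, 22.8 to 33.1). After each cell was thinned to 1000 adjusted counts, 3 or more were above 0 in 9.81%, 23.4% and 26.7%. No cell was too shallow for the thinning. The CONV interval lay below both others in either count, which covers the sampling of cells only and not the difference between mice. In the B cell gate all 7 compared genes of the group were also below both others in CONV, in the monocyte gate 11 of 15 (with 3 above both) and in the T cell gate 8 of 16 (with 6 above both). Across all compared genes of the B cell gate the share below both was 54.2%, of the monocyte gate 42.6% and of the T cell gate 37.3%.

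The upstream windows of 2 of these genes are shown with matches to the interferon-stimulated response element, TTTCNNTTTC on either strand, in capitals.
Isg15, chr4:156200819-156201068, minus strand: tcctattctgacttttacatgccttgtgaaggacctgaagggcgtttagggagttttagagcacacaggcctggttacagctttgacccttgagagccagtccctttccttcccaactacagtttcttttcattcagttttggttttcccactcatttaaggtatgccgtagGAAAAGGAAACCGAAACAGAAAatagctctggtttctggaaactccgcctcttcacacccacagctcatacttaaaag
Trim30a, chr7:104465194-104465443, minus strand: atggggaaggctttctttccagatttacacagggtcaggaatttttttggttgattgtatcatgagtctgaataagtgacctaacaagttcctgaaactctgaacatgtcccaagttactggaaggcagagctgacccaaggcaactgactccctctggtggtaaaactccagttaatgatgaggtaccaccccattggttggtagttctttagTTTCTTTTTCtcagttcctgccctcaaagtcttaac

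Isg15 holds 3 overlapping matches. Trim30a has another window, which holds no match and is not shown. Of the 25 genes outside the Ifitm family 20 had a window and 10 held the motif in at least 1, against 3.46% of all genes with a window and 2.98% of all windows. Oasl2, which differed most, had no match in its window, nor had Oasl1 or Slfn4.

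Secondary granule genes divided the neutrophils of each library. Ltf (lactoferrin), Camp (the cathelicidin peptide) and Ngp (neutrophilic granule protein) are made at the myelocyte and metamyelocyte stages and shut off in mature cells. Camp stood at 978, 1056 and 4421 acpm, but was above 0 in 3.77% (1.82 to 6.83), 8.88% (5.93 to 12.7) and 11.6% (8.18 to 15.7) of the neutrophils. Ngp stood at 2082, 2670 and 8429 acpm and Ltf at 534, 981 and 2506. All 3 were 2-fold or more above both others in FLASH. Most of their adjusted counts lay in few cells. Of the 3 genes, 1 or more was above 0 in 30, 48 and 55 cells, and all 3 were in 6, 20 and 30. Cells with 2 or more of the 3 genes, a cut chosen after the values were seen, numbered 10 (3.77%, 1.82 to 6.83), 26 (8.55%, 5.66 to 12.3) and 35 (11.6%, 8.18 to 15.7). These cells held 98.7%, 97.4% and 99.1% of the 3 genes' adjusted counts. The cut was made on the same genes, so this describes where the counts lay and is no separate evidence.

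The exclusion of Chil3 cells bears on this count. Of the 11 CONV AsiDNA cells that an exclusion gene removed, 10 had 2 or more of the 3 granule genes. With Chil3 not used as an exclusion gene, the granule cells of CONV AsiDNA numbered 35 of 313 (11.2%, 7.91 to 15.2), and those of the other libraries did not change. On that count the CONV interval lay below those of both others, and with the rule as given it overlapped that of CONV AsiDNA. These intervals cover the sampling of cells from 1 mouse per condition and are no test between conditions. Over all cells of a library, whatever their other markers, Camp and Ngp were both above 0 in 10 of 6372 CONV cells (0.157%, 0.0753 to 0.288), 43 of 6983 CONV AsiDNA cells (0.616%, 0.446 to 0.829) and 38 of 6267 FLASH cells (0.606%, 0.429 to 0.831). Without the Chil3 exclusion the log2 ratio of CONV AsiDNA over FLASH for Camp moved from -2.06 to -0.32, and that of CONV over CONV AsiDNA from -0.11 to -1.84. For Ngp the same ratios went from -1.65 to -0.49 and from -0.36 to -1.52, and for Ltf from -1.34 to -0.18 and from -0.87 to -2.03. The ratios of CONV over FLASH stayed at -2.17, -2.01 and -2.21 for Camp, Ngp and Ltf.

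**Figure D4:**
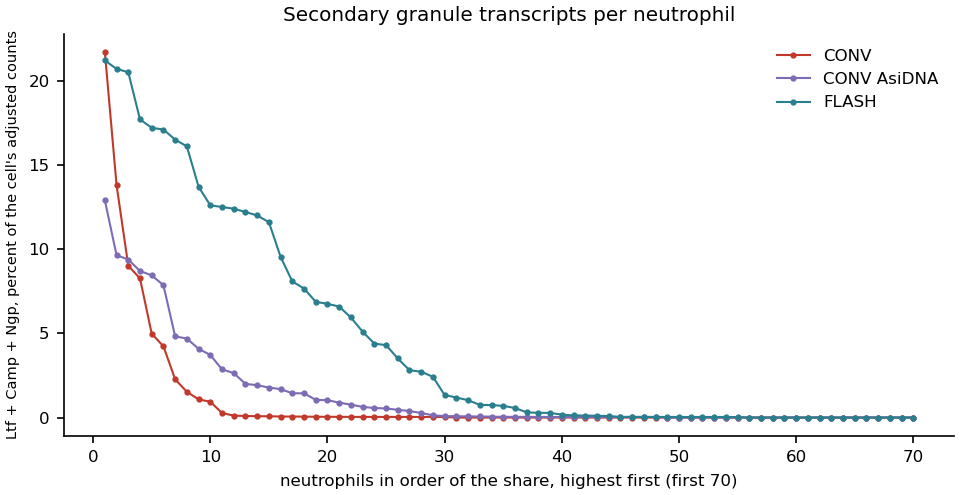
Ltf, Camp and Ngp together as a percent of each neutrophil's adjusted counts (y axis), with the neutrophils of each library in order of that share (x axis, the first 70). The highest cells reached 21.7%, 12.9% and 21.2%, and the genes were above 0 in 30, 48 and 55 cells.

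The levels of several genes that did not define the granule cells differed between them and the other neutrophils. S100a8, one of the 8 markers that chose the neutrophils, was higher in them, at 176749, 188977 and 198528 acpm against 68168, 65239 and 78582 in the rest. Lcn2, a siderophore-binding protein of secondary granules, stood at 17475, 14399 and 18227 against 977, 1120 and 1487. Mmp8, the neutrophil collagenase, stood at 9565, 9924 and 9300.0 against 878, 1100.0 and 1351. Cd177 and Ly6g, surface proteins of neutrophils, were above 0 in at least 80% of the granule cells and in at most 14.6% of the rest. Il1b was lower in them, at 1051, 2172 and 1146 against 16698, 15905 and 16586. Cxcl2 stood at 4756, 3453 and 2603 against 14951, 6470 and 7002. It was above 0 in 80%, 84.6% and 37.1% of the granule cells, of which CONV had 10, and in 96.5%, 82% and 80.6% of the rest. In CONV AsiDNA this share was thus higher in the granule cells, unlike in the other two libraries. Cxcr4, which holds neutrophils in the marrow and rises as they age, stood at 105, 92.8 and 61 against 930.0, 776 and 821. The granule cells were deeper, with a median of 3880, 4094 and 4262 adjusted counts against 2765, 2850 and 2860. Mki67 was listed at 0 in all of them.

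The wider group of secondary and tertiary granule genes was mostly lower in CONV, though some of its genes hardly differed. Of 14 compared genes, CONV was below both others for 10 and above both for 1, with medians of -0.15 and -0.57. The genes of the group made up 0.998%, 1.02% and 1.11% of the median neutrophil's adjusted counts, so the typical cell differed little. Lcn2 was above 0 in 41.5%, 52% and 57.8% of all neutrophils, and Mmp9 stood at 1899, 2076 and 1631 acpm. Hp and Pglyrp1 hardly differed, with Hp at 2353, 2303 and 2327. Cebpe, the transcription factor of the secondary granule programme, was above 0 in 3.77%, 6.58% and 8.58%. C/EBP motifs (TTNCNNAA on either strand) were found upstream of Ltf, Ngp, Lcn2, S100a8 and S100a9 and not of Camp, while 40.3% of all genes with a window and 36.8% of all windows hold one. Cybb, the core of the NADPH oxidase, was listed at 0 in CONV neutrophils, while 93.9% of the CONV monocyte gate had it, and was above 0 in 13.8% and 12.9% of the other libraries' neutrophils. In CONV AsiDNA and FLASH it was above 0 in 69.2% and 80% of the granule cells, and in 8.63% and 4.1% of the rest. CONV had 10 granule cells.

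Adhesion and migration genes were mostly lower in CONV, several of them only slightly. Of 14 compared genes, 11 were below both others and 1, Itga4, was above both, with medians of -0.16 and -0.18. Over all genes compared the medians were -0.07 and 0.03. Coro1a, at 1401, 1412 and 1431 acpm, is among the 11. Past 2-fold below FLASH were Cd177, at 119, 238 and 313 acpm, and Ceacam10, a member of the carcinoembryonic antigen family, at 29.3, 60.1 and 74.6. Cd177 was carried mostly by the granule cells, at 1550, 1578 and 1552 acpm against 42.2, 59.4 and 77.2 in the rest. In the rest CONV stood below FLASH by less than 2-fold. Itgb2, the beta 2 integrin chain of firm adhesion, stood at 523, 785 and 745 acpm. Itgam, the alpha chain that pairs with it, stood at 715, 773 and 731. Rac2, a GTPase of the neutrophil cytoskeleton and oxidase, stood at 799, 1031 and 1055. Among chemoattractant receptors, CONV was above both others for 4 of 8 and below both for 1. Genes of the rule are left out of the group counts, so these 8 do not include Cxcr2, which was lowest in CONV at 1206, 2509 and 2548 acpm. Ccr1 stood at 1537, 1483 and 1529, and Fpr1, a receptor for bacterial peptides, at 275, 327 and 351.

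Receptors for pathogens and antibodies showed no common direction, with 6 of 17 above both others in CONV and 8 below both. Cd14, a co-receptor for bacterial lipopolysaccharide, stood at 1757, 1050.0 and 894. Fcgr3, an activating receptor for antibodies, stood at 365, 700.0 and 579. Mrgpra2b, a receptor of murine neutrophils, was above 0 in 14%, 21.1% and 32%. Cytokines and chemokines were split as well, with CONV above both for 9 of 16 and below both for 5. Il1b differed little, at 15904, 14290 and 14123 acpm. Vegfa, the growth factor of blood vessels, was highest in CONV and lowest in FLASH, at 93.4, 52.4 and 15.1 acpm, in 16.2%, 9.21% and 1.65% of the cells. Ccl4 was above 0 in 1 FLASH neutrophil, against 6.42% in CONV and 4.28% in CONV AsiDNA. Ptgs2, the inducible cyclooxygenase, stood at 1987, 1825 and 1284.

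Of 17 compared genes of hypoxia and glycolysis, CONV was below both others for 9 and above both for 4, with medians of -0.25 and -0.34. Over all genes compared 40% were below both and 35.6% above both, with medians of -0.07 and 0.03. With 17 genes and no test, the difference is not read further. Ldha, lactate dehydrogenase, stood at 96, 168 and 199 acpm, and Aldoa, aldolase, was above 0 in 24.2%, 48.4% and 48.8% of the cells. Slc2a3, a glucose transporter, stood at 519, 720.0 and 659, and Hif1a at 149, 144 and 191. Among antioxidant genes 3 of 10 were above both and 5 below both. Ftl1, the ferritin light chain, was above 0 in 43% (37 to 49.2), 85.9% (81.4 to 89.6) and 84.2% (79.6 to 88.1) of the neutrophils. Fth1, the heavy chain, was not lower, at 8741, 7777 and 7274 acpm. Among 6 compared MHC class I genes none was above both and 4 were below both. B2m, their shared light chain, was above 0 in 12.5%, 62.2% and 66.3% of the neutrophils, and in 41.8%, 73.5% and 72.6% of the B cell gate. H2-K1 was listed at 0 in CONV neutrophils and was above 0 in 37.2% and 15.2% of the others.

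The genes farthest from both other libraries were taken by rule, 5 in each direction. Above both in CONV were Ddit4, Cxcl3, Hspa4l, Zfand2a and Cirbp. Ddit4, a stress-induced inhibitor of mTOR, was above 0 in 12.8%, 0.658% and 0.33% of the neutrophils, and was also highest in CONV in the other cells, at 17%, 8.11% and 10.4%. Hspa4l, a chaperone of the Hsp110 family, stood at 446, 99.4 and 91.9 acpm, against 68.4, 105 and 81.3 in the other cells. Cirbp, the cold-inducible RNA-binding protein, stood at 212, 62.3 and 61.6, with 254, 104 and 118 in the other cells. Below both in CONV were Smpdl3a, Ncoa4, B2m, Vps35 and Tmem14c. Ncoa4, the receptor that carries ferritin to the lysosome, was above 0 in 1.13%, 16.4% and 18.8%, with 179, 91.9 and 90.1 acpm in the other cells, where CONV was highest. Vps35, of the retromer, was above 0 in 0.755%, 16.4% and 13.5% of the neutrophils.

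Above both in CONV AsiDNA were Rpl13, Rps24, Cox7c, Pou2f2 and Prpf38b, and below both were Atp5md, Gps2, Rpl27, Mrpl43 and Ndufa8. Rpl13 and Rps24, ribosomal protein genes, were above 0 in 6 and 7 CONV AsiDNA neutrophils. The highest single cell there held 25 adjusted counts of Rpl13 and 37 of Rps24, so both ranks rest on few cells. Cox7c, a subunit of cytochrome oxidase, was above 0 in 1.89%, 11.8% and 0.99%. Above both in FLASH were Camp, Serpinb1a, Ngp, Rps16 and Gbp7. Serpinb1a, an inhibitor of neutrophil serine proteases, was above 0 in 0.755%, 5.26% and 11.2% of the neutrophils, and in 62.9% of the FLASH granule cells. Without the Chil3 exclusion its log2 ratio of CONV AsiDNA over FLASH went from -1.98 to -0.98. Below both in FLASH were Prdx6, Ccl4, Gsn, Nbeal1 and Cnbp. Prdx6, a peroxiredoxin, was above 0 in 41.9%, 36.2% and 1.98% of the neutrophils, and in 49.8%, 40.5% and 6.43% of the T cell gate. Gsn, gelsolin, stood at 221, 188 and 17.3 acpm, against 408, 585 and 676 in the other cells.

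Genes listed at 0 in 1 library and common elsewhere were few. H2-K1 and Ywhah were listed at 0 in CONV neutrophils and above 0 in at least 25% of those of another library. Gm42418 was listed at 0 in FLASH neutrophils, against 98.9% and 98.7% of the CONV and CONV AsiDNA neutrophils, and it was also at 0 in every FLASH cell of the B, T and monocyte gates. Its levels in the other libraries, 28736 and 30490 acpm, are part of the totals by which those libraries were scaled.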

How the data were processed

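Single-cell transcriptomes of dissociated lung were measured with droplet 3' libraries, 1 suspension per mouse. The submitters' processing notes name Cell Ranger 6.0.0 and the mm10 build, and the methods name R and Seurat. For each library the authors deposited values on a natural log scale, ln(1 + n) with n whole, with genes in rows and cells in columns. The study refers to earlier work, not used here, for the steps between reads and these values, and the plan made before the tables were opened allowed for raw counts, so no count model was fitted. Values were turned back with the exponential, and all lay within 1e-06 of a whole number. Sums over the neutrophils of a library were scaled to 1000000 adjusted counts, and log2 ratios were taken with 10 added. Genes needed a sum of 50 and a value above 0 in each library. With 1 library per condition no test was run.

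The neutrophil rule, the gene lists and the alternatives were chosen with earlier results of these data known. Named genes were taken from the lists and, by rule, as the 5 farthest above and below both other libraries. Shares of cells are given with 95% intervals by the exact Clopper-Pearson method, for counting error only. The libraries summed to 23908890, 26417388 and 23383510 adjusted counts, of which neutrophils held 749690, 915637 and 924748. No doublet caller was run, and an alternative left out the 6% of cells with the highest totals. The ratio step was tested on simulated data. Upstream sequences came from a RefSeq table of build GRCm38.p6. The series holds 4 more tables, of another experiment, with 12 sample columns and the authors' own fold changes and p-values. They were not used. Python 3.11.15, numpy 2.4.6, scipy 1.17.1, pandas 2.3.3 and matplotlib 3.10.9 were used. Some genes of the lists are not reported here by name.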

Additional observations from a re-analysis of the deposited data

How the results depend on the processing

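Every share of neutrophils stayed within its interval under all 7 alternatives tried for each library. No ratio of a named gene that was past 2-fold changed sign. Across named genes 18 values crossed the 2-fold line, inward or outward, while 1154 did not. Camp of CONV over CONV AsiDNA, for example, went outward from -0.11 to -1.84 without the Chil3 exclusion. Of the list medians, 4 were counted as moved and 641 as the same, though medians also shifted in size, as the ranges below show. Among those that crossed, Nfkbiz over FLASH lay between 0.94 and 0.99 under 4 alternatives, and Lcn2 of CONV over FLASH was -0.99 after thinning and -0.60 without the granule cells. Counts of genes past 2-fold depended on the settings. The main counts were 71 higher and 173 lower for CONV against CONV AsiDNA, 154 and 152 for CONV against FLASH, and 130 and 28 for CONV AsiDNA against FLASH. With 1 in place of 10 added to each level they became 121, 272, 237, 241, 200 and 52 in that order. With a minimum sum of 20, CONV stood above CONV AsiDNA for 116 genes, and CONV AsiDNA stood above FLASH for 211 and below it for 50. With a minimum sum of 200 fewer genes were compared, and the counts were 35, 37, 46, 50, 15 and 7. With each cell thinned to 1000 adjusted counts, CONV stood below CONV AsiDNA for 74 genes, above FLASH for 74 and below FLASH for 92, and CONV AsiDNA stood above FLASH for 36. Over the alternatives the CONV medians ranged from 0.45 to 0.76 for NF-kB feedback genes, from 0.28 to 0.51 for immediate early genes, from -0.83 to -0.41 for interferon-stimulated genes and from -0.68 to -0.06 for granule genes. Use of Chil3 as an exclusion gene, the granule cells and the place of S100a8 and S100a9 in the sum were varied after seeing the data. No paired analysis was possible because each condition has 1 library. Depth limits low genes, since the median neutrophil holds 791 to 857 genes, and differences between mice cannot be told apart from differences between conditions.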

Other observations

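Some further values belong in none of the comparisons above. The correlation of 834 genes with Cxcl2 across neutrophils was computed within each library, and genes were ordered by the weakest of their 3 values. By that order the genes most like Cxcl2 were Nfkbia (Spearman's rho of 0.50, 0.39 and 0.45), Nfkbiz (0.42, 0.40 and 0.33) and Il1b (0.43, 0.27 and 0.36). Ifitm6 was at the other end, with -0.21, -0.11 and -0.18. It was above 0 in 100%, 96.2% and 97.1% of the granule cells and in 31%, 28.4% and 35.8% of the rest. The granule cells were included in the correlations, and their part in them was not tested. The cells of a library share its depth and preparation, and the correlations are a description.

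Subunits of the vacuolar proton pump, a group picked after its values were seen, are given as a description. Of 24 such genes, 12 were compared. In CONV 8 of these were below both other libraries, where 40% of all genes were, 4 of them 2-fold or more. Atp6v1g1 (546, 446 and 442 acpm) and Atp6ap2 (119, 100 and 94.1) were above both. Atp6v1b2 stood at 16, 121 and 98.4 acpm, and at 156, 106 and 89 in the other cells, where CONV was highest. Atp6v0c stood at 82.7, 366 and 329, and at 411, 287 and 249 in the other cells. The other two past 2-fold were Atp6v0d1 (34.7, 91.7 and 89.8) and Atp6v1a (4, 68.8 and 38.9).

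Of the 4 clock genes compared, CONV was above both others for 3. Per1, a gene of the negative limb of the clock that also responds to stress hormones, was above 0 in 65.7%, 46.4% and 44.2% of the neutrophils.

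Genes 2-fold or more below both others in CONV neutrophils were compared with the other cells of the same libraries. Of these 95 genes, 44 (46.3%) were also below both others in CONV among the other cells and 36 (37.9%) were above both, beside 47.8% and 33.5% of all genes compared. Of the 37 genes above both others in CONV neutrophils, 16 (43.2%) were also above both in the other cells.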
